A study of Rattus norvegicus with 36 samples.

Results

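The ribosomal protein genes of the rat liver were examined in animals given TBBPA-DBPE, a brominated flame retardant. The abbreviation stands for the bis(2,3-dibromopropyl ether) of tetrabromobisphenol A. The genes were taken as the probe sets whose platform annotation names exactly 1 gene with an Rpl or Rps symbol and a number, and the Rps6k kinases, pseudogenes and like-genes were left out. This gave 47 probe sets for 43 genes, 30 of the large subunit (Rpl) and 13 of the small subunit (Rps), among 31042 probe sets tested and 14217 genes named by 1 probe set or more. A further 33 probe sets name several genes with at least 1 such symbol and were kept apart. Every group consisted of male Harlan Sprague Dawley rats, 7 weeks old at the start, that received corn oil by gavage at 5 ml/kg on 5 consecutive days, and liver from the left lobe was taken 1 day after the last dose. Of the 6 groups, 1 received the vehicle alone (0 mg/kg) and 5 received TBBPA-DBPE, at 0.1 mg/kg, at 0.94 mg/kg, at 9.4 mg/kg, at 94.3 mg/kg and at 943 mg/kg. Each had 6 animals and 6 Affymetrix arrays, 36 in all. The same 6 vehicle animals serve all 5 dose comparisons. The p-values measure the spread between these arrays.

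Ribosomal proteins are the protein part of the ribosome, and each is needed in about equal copy number, so their genes are expressed together and strongly in most cells, the hepatocyte included. Their mRNAs start with a C and a run of pyrimidines, the terminal oligopyrimidine (TOP) tract, through which mTOR signalling and the binding protein LARP1 adjust their translation to nutrients and growth. An array reads the amount of mRNA and does not read this control of translation.

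The arrays gave the deposited log2 values, with array medians from 4.59 to 4.66. All 11 measured hepatocyte markers lay above every array median, from 11.22 (Pck1) to 14.43 (Alb). Of the member probe sets, 37 lay above the 95th percentile of every array and 6 lay below every array median. The 6 dim probe sets were the representatives of Rpl28, Rpl30, Rps13 and Rpl3l and the second probe sets of Rpl14 and Rps24. No filter on low values was applied, so that all 47 probe sets entered the tests. A gene with 2 probe sets (Rpl3, Rpl7, Rpl14 and Rps24) was represented by the brighter. Levels of different probe sets are not compared, since a probe set's brightness depends on its probes. In whole liver, fewer cells of a type and less RNA per cell cannot be told apart.

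The start regions of the members shared a feature that the choice of members did not use. In the RefSeq promoter table (GRCr8), 38 of the 43 genes had an entry, 2 of them matched by symbol only. For 21 of these 38, the annotated start was also the gene start of the RefSeq gene table, so the start is less certain for the rest. In the window from 25 bases before to 25 bases after the annotated start, the longest unbroken run of C and T had a median of 11 bases among the members and of 5 bases among all 33469 promoters. A run of 8 or more was present in 28 of 38 members (73.7%), in 19.4% of all promoters, in 18.9% of 21851 protein-coding promoters and in 23.3% of 60 mitochondrial ribosomal protein genes. The sequences of 8 members are given because the results turn on these genes. Capitals mark the longest C and T run, and the window is on the strand of the gene, 5′ to 3′.
Rps6: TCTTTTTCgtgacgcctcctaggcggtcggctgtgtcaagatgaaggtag
Rpl27a: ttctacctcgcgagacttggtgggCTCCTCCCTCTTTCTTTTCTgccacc
Rps23: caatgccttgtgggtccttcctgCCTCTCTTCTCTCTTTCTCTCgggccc
Rpl35a: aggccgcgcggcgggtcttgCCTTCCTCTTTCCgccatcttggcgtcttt
Rpl11: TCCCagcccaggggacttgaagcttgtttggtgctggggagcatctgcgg
Rpl41: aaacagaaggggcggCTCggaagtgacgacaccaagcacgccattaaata
Rps27l: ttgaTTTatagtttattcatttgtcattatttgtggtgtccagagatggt
Rpl3l: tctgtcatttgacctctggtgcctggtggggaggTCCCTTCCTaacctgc
These windows lie at chr5:106420516-106420565 (Rps6, minus strand), chr1:172974548-172974597 (Rpl27a, plus), chr2:23814492-23814541 (Rps23, plus), chr11:81234997-81235046 (Rpl35a, minus), chr5:153560778-153560827 (Rpl11, minus), chr7:1563473-1563522 (Rpl41, minus), chr8:76443633-76443682 (Rps27l, plus) and chr10:14258421-14258470 (Rpl3l, plus) of GRCr8. The run was 20 bases long in Rpl27a, 21 in Rps23 and 13 in Rpl35a, and in these genes it began within 5 bases of the annotated start. In Rps6 it was 8 bases long and in Rpl11 4 bases, and in both it touched the edge of the window, which does not give its full length. These 2 runs began 25 bases before the annotated start and ended before it, so they do not lie in the mRNA as annotated. It was 9 bases long in Rpl3l, 3 in Rpl41 and 3 in Rps27l.

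The letters CTTTCC were present in the window of 26.3% of the members, against 2.19% of all promoters and 1.67% of the mitochondrial ribosomal protein genes. In the whole window from 250 bases before to 50 bases after the start, on both strands, CCGGAAG (letters of the site of ETS factors such as GABP) was present in 21.1% of the members and 8.75% of all promoters. AAGATGGC, letters of the site of YY1, was present in 10.5% of the members and 3.17% of all promoters. Both were more frequent in mitochondrial ribosomal protein genes, at 31.7% and 23.3%. TATAAA was present in 13.2% of the members and 14.2% of all promoters. The CTTTCC letters are all C or T, so each match lies in a C and T run and is no feature separate from such runs. A match of letters is a description of the sequence only.

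The ribosomal protein genes lay slightly higher in most dosed animals than in vehicle animals, by amounts too small to pass the test. The median difference over the 43 genes was 0.11 at 0.1 mg/kg, 0.08 at 0.94 mg/kg, 0.04 at 9.4 mg/kg, 0.09 at 94.3 mg/kg and 0.10 at 943 mg/kg on the log2 scale. It did not follow the order of the doses. The number of genes with a higher mean than vehicle was 41, 39, 37, 41 and 42 of 43 at the 5 doses in that order, while 50.6%, 51.4%, 51.2%, 52.5% and 50.8% of all 14217 genes were higher, with medians from 0.0014 to 0.0053. Large-subunit and small-subunit genes gave medians of 0.11 and 0.11 at 0.1 mg/kg and of 0.09 and 0.12 at 943 mg/kg. Because the members moved together from animal to animal, as described further on, these counts of genes are not independent observations.

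By limma with Benjamini-Hochberg adjustment over all probe sets, 0 of 47 member probe sets passed an adjusted p of 0.05 at any dose, in the F test over the 5 doses or in the trend, and the share of all probe sets that passed was 0% in each of these comparisons. The smallest adjusted p of a member was 0.599, for Rps6 at 94.3 mg/kg. At an unadjusted p under 0.05, 20 of 47 member probe sets were higher at 0.1 mg/kg, where 3% of all probe sets were. The count was 4 at 0.94 mg/kg (2.1% of all), 2 at 9.4 mg/kg (2.21% of all), 9 at 94.3 mg/kg (3.68% of all) and 15 at 943 mg/kg (3.07% of all). At the same threshold 0 of 47 were lower at each of the 5 doses, where 2.62%, 2.06%, 2.64%, 3.22% and 2.67% of all probe sets were, in ascending order of dose. In the F test 1 member (Rps6) had an unadjusted p under 0.05 (5.35% of all probe sets), and in the trend over dose rank 2 members had one (5.68% of all probe sets).

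The animals showed how the vehicle group and the dosed groups lay. The mean of the 43 genes, taken as the deviation from each gene's mean over 36 animals, was -0.070 ± 0.072 (SD, n = 6) in vehicle. It was 0.038 ± 0.093 at 0.1 mg/kg, 0.0057 ± 0.073 at 0.94 mg/kg, -0.020 ± 0.094 at 9.4 mg/kg, 0.016 ± 0.028 at 94.3 mg/kg and 0.030 ± 0.047 at 943 mg/kg (SD, n = 6 each). Of the vehicle animals, 5 lay below 0 and replicate 5 lay above it at 0.053. All groups overlapped: 2, 2, 2, 0 and 2 of 6 animals at the 5 doses in ascending order lay above the highest vehicle animal. At 0.1 mg/kg replicate 6 lay at 0.18 and replicate 1 at -0.10, and these 2 animals lay farthest from their own group's mean. At 9.4 mg/kg the median difference of 0.04 became 0.025 without replicate 4 of that dose and 0.073 without vehicle replicate 5.

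**Figure D1:**
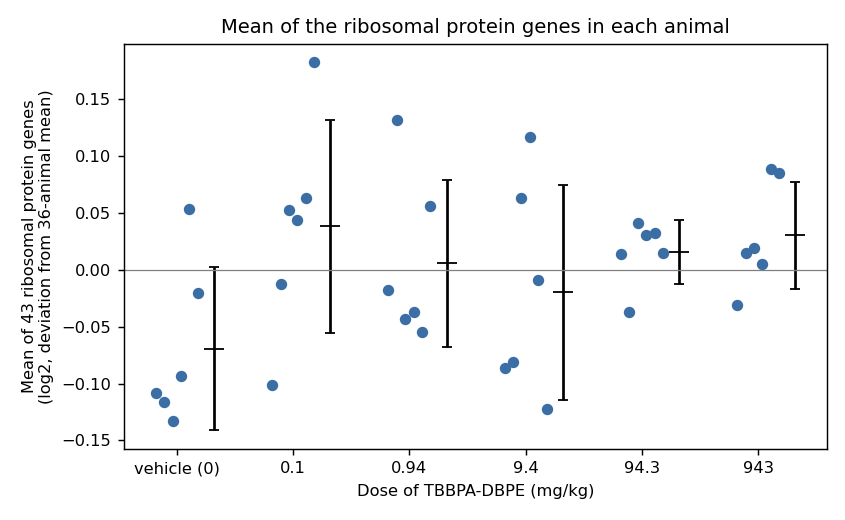
Mean log2 deviation of the 43 ribosomal protein genes in each of 36 livers, by dose in mg/kg, with points for animals and bars for the group mean and SD (n = 6). Of the 6 vehicle animals, 5 lie below 0, and every dosed group overlaps the vehicle group.

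Rps6, the small-subunit protein phosphorylated downstream of mTOR, had the smallest F test p of the members (limma, unadjusted p = 0.030, adjusted p = 0.918). Its log2 value ran from 11.88 over a median of 11.94 to 12.11 in vehicle, and from 11.97 over 12.17 to 12.31 at 0.1 mg/kg. The lowest, median and highest values were 12.03, 12.05 and 12.27 at 0.94 mg/kg, 11.97, 12.06 and 12.23 at 9.4 mg/kg, 12.05, 12.09 and 12.15 at 94.3 mg/kg, and 12.02, 12.09 and 12.19 at 943 mg/kg. All 30 dosed animals lay above the vehicle mean of 11.96, and 5 of 6 animals at 0.1 mg/kg lay above the highest vehicle animal, against 2 of 6 at each other dose. The difference from vehicle was 0.20 (SE 0.055, 1.15-fold) at 0.1 mg/kg, with a limma unadjusted p of 0.0010 and an adjusted p of 0.823. It was 0.13, 0.13, 0.14 and 0.14 at the doses above, with the same SE. The estimate was largest at the lowest dose, the difference between doses was not tested, and each dosed group overlapped the vehicle group.

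Rpl11 and Rpl5 form, with the 5S ribosomal RNA, the particle that can bind Mdm2 and so stabilize p53, and Rpl23 also binds Mdm2. Rpl11 lay between 11.58 and 11.85 (median 11.69) in vehicle, at 11.74 or more (median 11.89, mean 11.88 ± 0.11 SD) at 0.1 mg/kg and between 11.76 and 11.99 (median 11.89) at 943 mg/kg. At each of these 2 doses, 4 of 6 animals lay above the vehicle range. Its difference was 0.18 (SE 0.066) at 0.1 mg/kg, 0.15 at 0.94 mg/kg and 0.18 at 943 mg/kg, where it had the smallest p of the members (limma, unadjusted p = 0.0099, adjusted p = 0.865). Rpl5 differed by 0.029 and Rpl23 by 0.079 at 943 mg/kg, and 0 of 6 animals exceeded every vehicle animal for either at this dose. At 0.1 mg/kg all 3 genes were higher than vehicle, by 0.11 to 0.18. Each had an unadjusted p under 0.05 there (limma, smallest adjusted p = 0.832), where 3% of all probe sets were higher at that threshold. Rpl23 lay between 11.94 and 12.20 (median 12.15) at 0.1 mg/kg, against 11.89 to 12.14 in vehicle.

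The P stalk, which recruits the GTPase elongation factors, was represented by Rplp0 and Rpl12, the protein at its base. Rplp0 ran from 11.92 over a median of 11.99 to 12.04 in vehicle and from 12.05 over 12.10 to 12.19 at 94.3 mg/kg. These 2 groups did not overlap, as 6 of 6 dosed animals exceeded every vehicle animal, which was picked out after the values were seen. The difference of 0.13 (SE 0.057) did not pass (limma, adjusted p = 0.657), and 0% of all probe sets passed at this dose. Of all 31042 probe sets, 50 (0.161%) had every animal at 94.3 mg/kg above the vehicle range, and Rplp0 was the 1 of these among the members. At 943 mg/kg Rplp0 ranged from 12.02 to 12.20 and 5 of 6 animals exceeded every vehicle animal, for a difference of 0.12. Rpl12 differed by 0.14 (SE 0.070) at 943 mg/kg.

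Genes of the decoding side and of the exit tunnel also had medians slightly above vehicle, at the lowest dose about as at the highest. At the 5 doses in ascending order, the median difference was 0.14, 0.097, 0.058, 0.12 and 0.13 over the 3 measured genes of the mRNA channel and decoding. Over the 6 measured genes of the exit tunnel it was 0.092, 0.082, 0.013, 0.074 and 0.092. Rps3 and Rps23, at the mRNA channel and the decoding centre, differed by 0.13 and 0.14 at 943 mg/kg, and Rps15 by 0.11. Rps23 lay between 12.35 and 12.48 in vehicle and between 12.43 and 12.66 at 943 mg/kg, and 5 of 6 animals exceeded every vehicle animal. The 6 measured proteins that line the exit tunnel or its opening (Rpl19, Rpl22, Rpl23a, Rpl26, Rpl35 and Rpl39) differed by 0.053 to 0.11 at 943 mg/kg. None of these genes passed the test.

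Of the genes higher than vehicle, the remaining ones with the smallest p at a dose were large-subunit genes. Rpl7a differed by 0.15 (SE 0.054) at 0.1 mg/kg, with values from 12.16 to 12.39 in vehicle and from 12.22 to 12.51 at that dose. For Rpl35a, a gene mutated in some cases of Diamond-Blackfan anaemia, the difference was 0.18 at 0.94 mg/kg and 0.15 at 9.4 mg/kg. The difference of Rpl4 was 0.11 at 9.4 mg/kg, that of Rpl18 was 0.15 at 94.3 mg/kg and that of Rpl27a was 0.14 at 943 mg/kg. The adjusted p of these 5 genes at these doses lay between 0.623 and 0.999 (limma). Rpl13a, known for a role in silencing inflammatory mRNAs outside the ribosome, differed by 0.16 (SE 0.065) at 943 mg/kg, from a vehicle range of 11.11 to 11.44 to a range of 11.30 to 11.45.

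**Figure D2:**
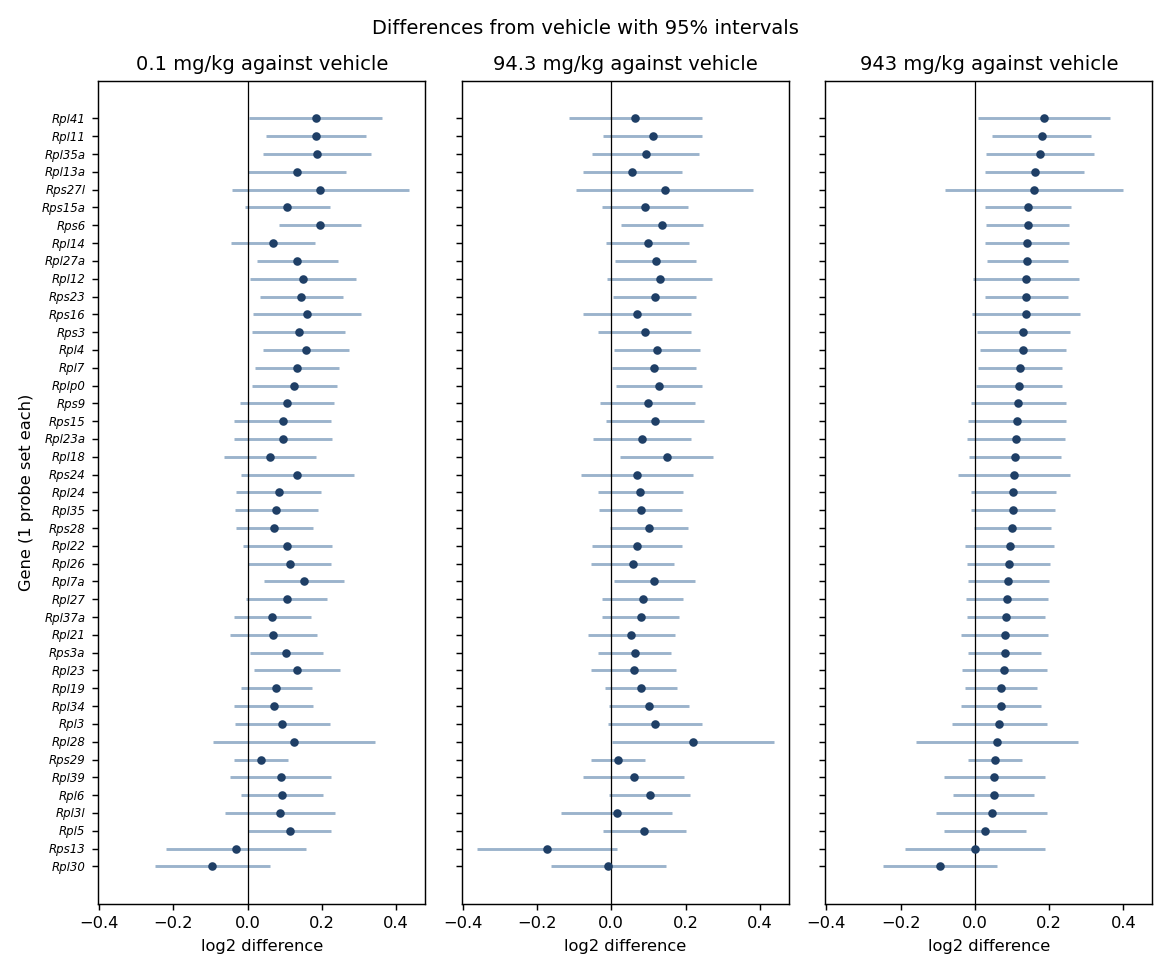
Differences from vehicle on the log2 scale for the 43 genes at 0.1, 94.3 and 943 mg/kg, with points for the difference and lines for the 95% interval from limma, ordered by the difference at 943 mg/kg. Nearly all points lie to the right of 0, and no gene passed the adjusted threshold.

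Over the 6 groups in order of dose, Rpl14 and Rpl18 had the smallest trend p of the upward slopes. Rpl14 had vehicle values of 10.56 to 10.82 (median 10.65) and values of 10.70 to 10.90 (median 10.81) at 943 mg/kg, and 3 of 6 animals exceeded every vehicle animal. Its slope was 0.023 per dose step (SE 0.0090; limma, unadjusted p = 0.015, adjusted p = 0.839). The slope of Rpl18 was 0.023 (SE 0.010; limma, adjusted p = 0.874). Of the probe sets that represent a gene, the downward slopes were those of Rps13 and Rpl30, both dim, at -0.014 and -0.0044.

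The genes with lower means in dosed animals were mainly dim ones. All 39 member genes above the array medians had a higher mean than vehicle at 0.1, 0.94, 94.3 and 943 mg/kg, and 36 of 39 did at 9.4 mg/kg, where Rpl22, Rpl39 and Rps28 had differences of -0.013, -0.0088 and -0.028. Rpl30 differed by -0.095, -0.14, -0.080, -0.0085 and -0.094 at the 5 doses in ascending order. Rps13 ran from 3.47 to 3.94 in vehicle and from 3.32 to 3.62 at 94.3 mg/kg, a difference of -0.17 (SE 0.093) that did not pass (limma, adjusted p = 0.754). The difference of Rpl28 was -0.087 at 0.94 mg/kg and 0.22 at 94.3 mg/kg. The 6 vehicle values of Rpl28 alone spanned 2.16 to 3.01. The signs of Rps13 at 0.1 and 0.94 mg/kg, of Rpl28 at 0.94 and 943 mg/kg and of Rpl30 at 94.3 mg/kg turned when 1 animal was left out.

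Among the members, Rpl3 and Rpl3l are both genes of a paralogue pair, and Rps27l and Rpl39 belong to pairs of which the other gene was not a member. Rpl3l, the striated-muscle paralogue of Rpl3, lay below every array median and between 2.52 and 3.27 in all 36 livers, and differed by 0.045 (SE 0.073) at 943 mg/kg. Rpl3 itself lay between 11.89 and 12.25 and differed by 0.066 (SE 0.063). Rps27l, a p53-inducible paralogue of Rps27, had 1 vehicle animal (replicate 1) at 7.49 while the other 35 animals lay between 8.32 and 8.83. Its difference of 0.16 (SE 0.12) at 943 mg/kg became -0.033 without that animal. The second probe set of Rps24, dim, differed by -0.11 at 943 mg/kg where the brighter one differed by 0.10, and these correlated over the 36 animals at r = 0.052.

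**Figure D3:**
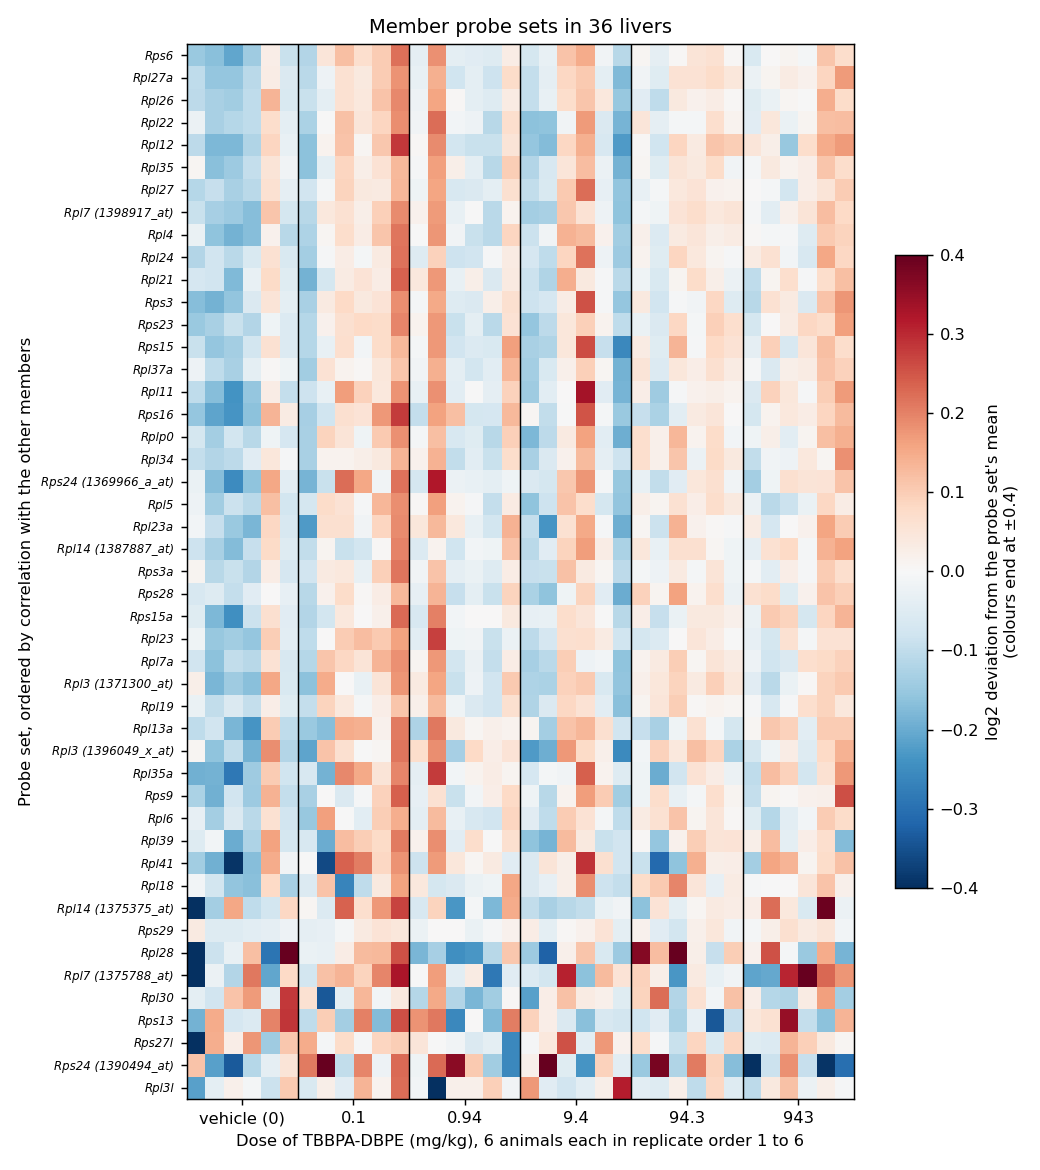
Log2 deviation of the 47 member probe sets from their own mean in 36 livers, in columns by dose group and replicate and in rows by correlation with the other members. Vertical bands of 1 colour through most rows mark animals in which the members were high or low together.

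A further feature of these genes was their common movement between animals of the same group. After each group's mean was taken out, the mean correlation of 2 member genes over the 36 animals was 0.554. That of 2 of all 14217 genes was 0.0046, but RMA scales all arrays to 1 distribution, which holds this value near 0. It is therefore no measure of how unusual the members are. Of 903 pairs of member genes, 601 had r above 0.5 and 72 had r below 0. The mean over large-subunit genes and that over small-subunit genes correlated at r = 0.933 (rho = 0.907, and r = 0.911 without the 2 animals farthest from their group mean). Without these 2 animals, replicates 1 and 6 at 0.1 mg/kg, the mean correlation was 0.504. The first principal component held 51.7% of the members' within-group variance. Mitochondrial ribosomal protein genes had a mean correlation of 0.433 and the other TOP mRNAs one of 0.327. The points of these correlations share an array, its RNA and its normalization, and they are descriptions with no test.

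**Figure D4:**
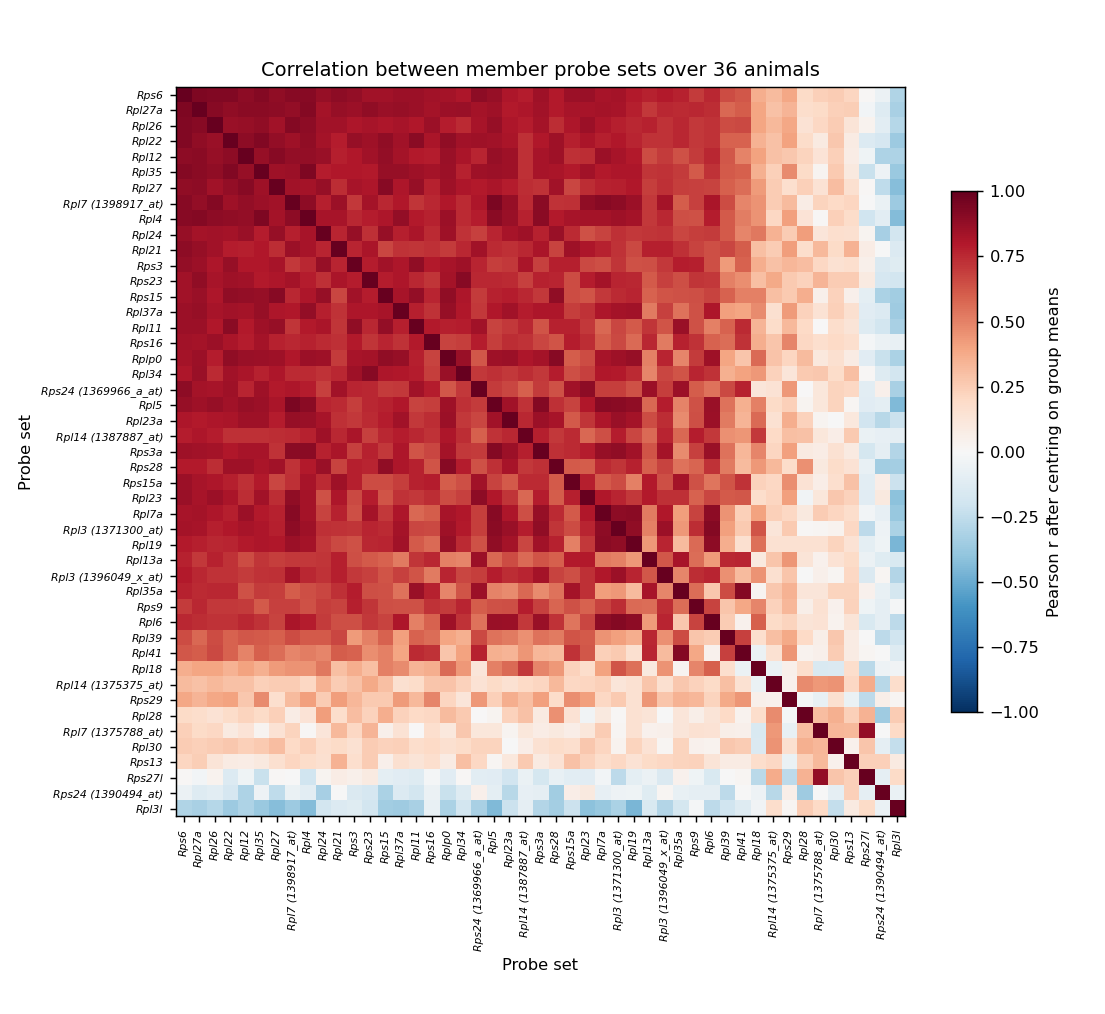
Pearson correlation over 36 animals between the 47 member probe sets after centring on group means, in the order of their correlation with the other members. The block of high r holds the bright probe sets, and Rps27l, Rpl3l and the dim probe sets lie outside it.

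In size the common movement was small. The within-group SD had a median of 0.0906 over the member genes, against 0.145 over all probe sets and 0.135 over those above the array medians. The mean of the 43 genes had a within-group SD of 0.072, close to that of a single member. The mean of all genes had one of 0.0073, but RMA scales all arrays to 1 distribution. This keeps the mean of all genes nearly constant, so its SD is no measure of how unusual the members are. Rps6 followed the others most closely, at r = 0.966 with the mean of the other members, and Rpl27a (0.95), Rpl26 (0.933), Rpl22 (0.921) and Rpl12 (0.908) came next. In all, 34 of 43 genes had r above 0.7 and all of these were among the 39 genes above the array medians. In the animal highest for the mean, replicate 6 at 0.1 mg/kg, 43 of 43 genes lay above their own mean, and in replicate 1 of that group 2 of 43 did.

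A few genes stood outside the common movement. Rps29 had the smallest within-group SD, 0.035, around a mean of 12.76, and r = 0.362 with the others. Rpl18 had r = 0.409. The 4 dim genes had r of 0.266 or less, with Rpl3l at -0.268. Rps27l had r = -0.027 and the largest within-group SD of a gene's representative, 0.214, but these values rest on vehicle replicate 1. Without that animal its SD was 0.0955 and its r -0.153, and Rpl28 then had the largest SD, 0.182. The second probe set of Rpl7, with that animal at 7.31 and the other 35 from 8.39 to 9.11, had an SD of 0.282 with it and of 0.174 without it, and correlated at 0.225 with the other Rpl7 probe set. Rpl41, the smallest ribosomal protein, had the largest SD of the genes above the 95th percentiles, 0.156, with r = 0.589. It moved most like Rpl35a, at r = 0.920.

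**Figure D5:**
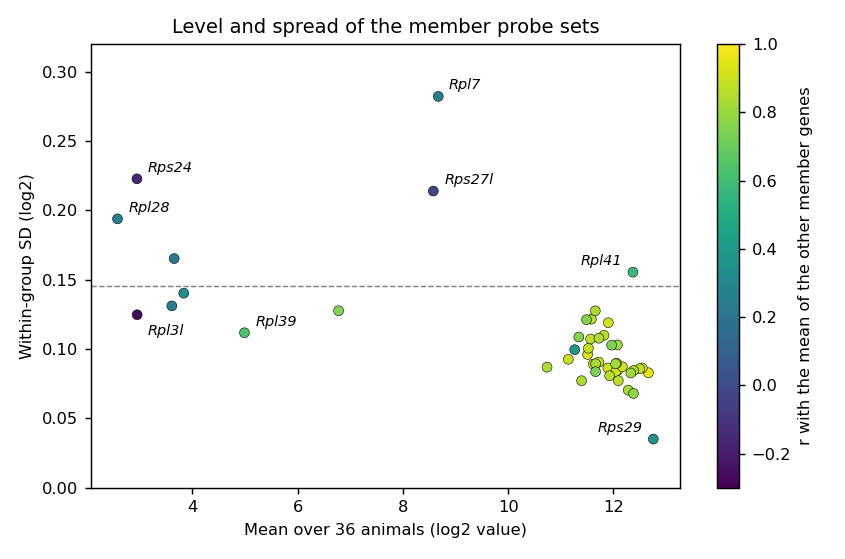
Mean log2 value and within-group SD of the 47 member probe sets, coloured by their correlation with the mean of the other members, with the median SD of all probe sets as a dashed line at 0.145. The labelled Rpl7 and Rps24 points are the dimmer probe sets of these genes, and most bright members lie near an SD of 0.1 or lower.

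Start sequence and common movement can be set side by side for the genes printed above. Rpl27a, Rps23 and Rpl35a, with runs of 20, 21 and 13 C and T bases, had r of 0.95, 0.883 and 0.755 with the other members. Rps6 and Rpl11, whose runs of 8 and 4 bases touched the edge of the window, had r of 0.966 and 0.861. Rpl3l, with a run of 9 bases, had r = -0.268, and Rpl41 and Rps27l, each with a run of 3, had 0.589 and -0.027. These 8 genes were chosen for other results and are no sample of the members. Other members differed from such an order: Rpl24 and Rpl3, with runs of 6 and 5, had r of 0.901 and 0.813. Rpl28 and Rps13, both dim, had runs of 11 and 10 and r of 0.266 and 0.228. A relation of run length to r over all members was not tested.

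Outside the members, 67 of 30995 probe sets had r above 0.7 with their mean. Among the 50 most alike of these, 29 name several genes including a ribosomal protein symbol, 11 name 1 gene, 2 name several other genes and 8 name none. A probe set of Rpsa, the small-subunit laminin receptor protein, had r = 0.951 (rho = 0.945, and 0.944 without the 2 animals). Rack1, a scaffold protein on the small subunit, had 0.873, and the elongation factors Eef1g, Eef1b2 and Eef2 had 0.837, 0.813 and 0.768. Gas5, a non-coding TOP transcript that hosts small nucleolar RNAs, had 0.803. These were the 6 most alike of the genes that a probe set names alone, and Igbp1 (0.763), Hdc (0.757), Fkbp11 (0.746) and Rbm45 (0.743) followed. Among all probe sets outside the members, those of Rpsa, Rack1 and Eef1g ranked 1, 15 and 23, and those of the last 4 genes ranked 46, 49, 54 and 55.

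Related gene lists differed from vehicle as follows, with 0 genes passing the adjusted threshold in any of them at any dose (limma, 0% of all probe sets). Of the ribosomal proteins outside the symbol rule, Rpsa, Rack1 and Rpl7l1 were measured, and the difference of the brighter Rpsa probe set was 0.16 (SE 0.059) at 0.1 mg/kg and 0.16 at 943 mg/kg. Of 15 measured TOP mRNAs of other proteins, 13, 14, 13, 14 and 13 were higher at the 5 doses in ascending order. The medians were 0.093, 0.052, 0.053, 0.11 and 0.038. At 0.1 and 943 mg/kg, Eef1b2 differed by 0.17 and 0.15, Eef1g by 0.12 and 0.16, and Naca, a nascent-chain chaperone subunit, by 0.16 and 0.11. Of 18 measured regulators of these mRNAs, 9, 8, 9, 10 and 7 were higher at the 5 doses in ascending order. The medians were 0.011, -0.011, -0.016, 0.0042 and -0.043. Mtor differed by -0.19 (SE 0.069, limma adjusted p = 0.836) at 0.1 mg/kg. At the doses above, its difference was -0.12, -0.073, -0.14 and -0.053. Max differed by 0.18 (SE 0.071, limma adjusted p = 0.584) at 94.3 mg/kg and by 0.036 at 943 mg/kg. Eif4ebp1, an mTOR substrate that blocks translation, differed by 0.13 at 0.1 mg/kg and by 0.28 (SE 0.078; limma, adjusted p = 0.384) at 94.3 mg/kg. Tsc2, which restrains mTOR and was picked out after its values were seen, differed by -0.23 (SE 0.072; limma, adjusted p = 0.823) at 0.1 mg/kg. Of 72 mitochondrial ribosomal protein genes, 61, 70, 56, 62 and 67 were higher at the 5 doses in ascending order, with medians of 0.038, 0.085, 0.040, 0.050 and 0.066.

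Other measures of the same arrays were set beside the mean of the members over the 36 animals, after centring on groups. The difference between the 3′ and 5′ GAPDH control probe sets, a measure of RNA integrity and labelling, had r = 0.362 (rho = 0.359). That of actin had r = 0.249, with a lower rho of 0.089. The 6 proliferation markers, 4 of them below every array median, had r = 0.432 (rho = 0.297), and 5, 1, 6, 6 and 6 of them were higher than vehicle at the 5 doses in ascending order, with medians of 0.066, -0.058, 0.23, 0.058 and 0.12. Their mean level ran from 3.94 to 5.05 in vehicle, 4.07 to 4.74 at 0.1 mg/kg, 4.02 to 4.48 at 0.94 mg/kg, 4.18 to 5.18 at 9.4 mg/kg, 4.05 to 4.72 at 94.3 mg/kg and 4.0 to 4.74 at 943 mg/kg. The 11 measured hepatocyte markers had r = 0.159 and the 9 Kupffer cell and macrophage markers r = 0.045. All 9 of the latter were lower than vehicle at 0.1 and 943 mg/kg and higher at 9.4 mg/kg, with mean levels from 7.94 to 8.71 in vehicle, 7.88 to 8.61 at 0.1 mg/kg, 8.46 to 8.66 at 9.4 mg/kg and 7.98 to 8.55 at 943 mg/kg. The part of these measures in the members' differences was not tested.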

How the data were processed

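Liver RNA of 36 rats was measured on 36 Affymetrix arrays. The deposited values are log2 expression per probe set, made by the authors with RMA and affy (versions not given in the sources used here), per the submitters' processing notes. RMA scales all arrays to 1 distribution, so a shift common to most genes cannot be seen. Per the series' design text, the authors used R/maanova, which limma replaced here. The 57 control probe sets were left out. Group means were fitted to all arrays at once with limma 3.58.1 in R 4.3.3 (lmFit and eBayes), with two-sided p-values adjusted by Benjamini-Hochberg over 31042 probe sets (threshold 0.05). An F test covered the 5 doses and a slope the dose rank 0 to 5. The number of arrays limits the precision (median SE 0.083). The method was tested on simulated data.

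The probe annotation names 1 gene for 20826 probe sets, several for 436 and none for 9780. Of the members, 41 of 43 Entrez identifiers were in the RefSeq gene table, with the same symbol. Named were, per dose, the 3 genes per direction with the smallest p, those with the smallest F test and trend p, the 5 with the largest and smallest SD, and all measured members of role groups. The members and lists were chosen with earlier results of these data known. Replicate numbers did not pair animals: same-numbered animals of different groups correlated at -0.27 to 0.29, and 18 of 90 pairs exceeded 0.1.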

Additional observations from a re-analysis of the deposited data

Results flagged for a closer look

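For 36 values (the mean of the members and 35 named probe sets) in each of 6 groups, the highest or lowest animal was compared with the rest by Dixon's gap over range, and 19 of 216 groups passed the 95% critical value for 6 animals. Chance gives about 1 in 20 groups, and the values are not independent because the members move together.

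Replicate 2 at 0.94 mg/kg was high for Rps6 (12.27, the others 12.03 to 12.11), Rpl35a (11.77), Rpl23 (12.32) and the brighter Rps24 probe set (11.98), and low for Rpl3l (2.52). Replicate 2 at 94.3 mg/kg was low for the mean of the members (-0.037, the others 0.014 to 0.041), Rpl11 (11.68), Rpl4 (11.66), Rpl37a (12.04) and Rpl39 (4.84). Replicate 4 at 9.4 mg/kg was high for Rpl11 (12.15, the others 11.63 to 11.82) and Rpl35a (11.73).

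Vehicle replicate 1 was low for Rps27l (7.49, the others 8.44 to 8.75) and high for Rps29 (12.79), and vehicle replicate 5 was high for Rpl26 (12.68). At 0.1 mg/kg, replicate 2 was low for Rpl30 (3.27) and replicate 6 high for Rpl14 (10.94). Replicate 6 at 0.94 mg/kg was low for Rps27l (8.32), and replicate 5 at 94.3 mg/kg was low for Rps13 (3.32).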

How the results depend on the processing

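The alternatives were the upper 50% of probe sets, a variance trend, array weights, renormalization, median centring, the replicate block, 2-group fits, 1 probe set per gene, an unmoderated model, other dose scores, other member sets and leaving out each animal; adding the several-gene probe sets, keeping only members above the array medians and taking the SD and r of members without vehicle replicate 1 were chosen after seeing the data. In each, 0 members passed at any dose, the replicate block included (0 members). Same-numbered animals are not paired, and 8 of 36 animals correlated best with their own number. Over the named differences, the smallest adjusted p (limma) was 0.416, or 0.387 with 1 animal left out. The median over the members was taken in 9 of these settings: the upper 50% of probe sets, renormalization, median centring and other member sets. It was also taken with each animal left out, and it stayed above 0 throughout. At the 5 doses in ascending order, it was 0.097 to 0.11, 0.081 to 0.087, 0.036 to 0.055, 0.085 to 0.092 and 0.093 to 0.12 in the 9 settings. With 1 animal left out, it was 0.080 to 0.14, 0.055 to 0.11, 0.025 to 0.073, 0.076 to 0.12 and 0.088 to 0.13. Of 53 named differences, 1 reversed under another setting: Rpl28 at 943 mg/kg was -0.00066 with array weights. With 1 animal left out, Rpl28 ranged from -0.16 to 0.0094 at 0.94 mg/kg and from -0.016 to 0.16 at 943 mg/kg, Rpl30 at 94.3 mg/kg from -0.041 to 0.034, Rps13 from -0.079 to 0.016 at 0.1 mg/kg and from -0.077 to 0.029 at 0.94 mg/kg, and Rps27l at 943 mg/kg from -0.033 to 0.22. The cause was not tested. Dim probe sets (Rpl28, Rpl30, Rps13, Rpl3l) limit what can be read of these genes.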

Other observations

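The genes whose within-group values ran most against the mean of the ribosomal protein genes were picked out after their values were seen. They included Cyp2c11, the male-predominant steroid hydroxylase, at r = -0.747 over the 36 animals. Its rho was -0.692, and its r was -0.713 without the 2 animals farthest from their group mean. Fetub, a plasma protease inhibitor, had r = -0.699, Cyp2d3 r = -0.698, Hrg, a plasma glycoprotein, r = -0.692 and Cyp1a2 r = -0.691. Agmo, the enzyme that cleaves ether lipids, had r = -0.721. Plekha8, Abcg8, Numb and Nfe2 had r of -0.709, -0.692, -0.683 and -0.681. The mean of the 11 measured hepatocyte markers did not run against the members, at r = 0.159 (0.286 without the 2 animals). These are descriptions with no test, and the arrays' normalization is shared by both sides.

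The members outside the common movement had likenesses of their own, also picked out after their values were seen. Rps27l followed Gosr1, a Golgi SNARE, at r = 0.933 and the second probe set of Rpl7 at r = 0.878, which became 0.810 and 0.645 without the 2 animals farthest in Rps27l. Rpl3l, dim, followed Il18 at r = 0.731, Dhx58 at 0.698 and Dtx3l at 0.695, all known as inflammatory or interferon-related genes. Tmem167b (0.690), Snap29 (0.666) and Fgl2 (0.657) came next, and a theme shared by these genes was not tested. Rpl41 followed Sec61g, a subunit of the protein channel of the endoplasmic reticulum, at r = 0.870.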
